A study of Homo sapiens with 6 samples.

Results

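The genes described are 10 that set the activity of mTOR complex 1 (mTORC1): the stress-induced inhibitors DDIT4, SESN1, SESN2 and SESN3, the TSC complex genes TSC1 and TSC2, its target RHEB, and MTOR, RPTOR and DEPTOR, which encode parts of the complex itself. They are 10 of the 60668 genes in the table, and all 10 were among the 21101 genes with enough reads to be tested. SESN2 and DDIT4 were picked because they rose in this same comparison, so their values are a description and carry no test. The other 8 were picked as partners in the pathway, with earlier results of these data known, and were tested.

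mTORC1 is a lysosomal kinase complex that promotes protein and lipid synthesis and restrains autophagy when nutrients and growth factors are plentiful. Growth factor and energy signals reach it through the TSC complex, which switches off the small GTPase RHEB, and amino acid signals reach it through the Rag GTPases and the GATOR complexes. Sestrins and DDIT4 (also called REDD1) are made under stress and lower mTORC1 activity, sestrins through GATOR2 and DDIT4 through the TSC complex. RNA levels do not measure that activity, and neither protein nor phosphorylation was analysed here.

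MiaPaCa-2 cells, an established human pancreatic ductal adenocarcinoma (PDAC) line, were kept for 48 h in low glucose (2.5 mM, 3 libraries) or under control conditions (25 mM, 3 libraries). The cells carried no engineered change, both groups are the same line, and the series describes the 3 libraries per group as independent biological replicates. The treatment field of the labels gives 2.5 mM for every sample, and the control concentration comes from the design text. The labels tie only low glucose replicates 1 and 2 to their columns, and the other 4 columns were grouped by the run of their names, so libraries are called by group and read total below.

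Reads on genes numbered 9741183, 10126218 and 10190154 in the controls and 10841656, 10595408 and 13733477 under low glucose. A normalized count is the number of reads on a gene divided by 1 size factor per library. Before any result, 2 control libraries must be set apart. Each library's deviation was taken from the mean of the other libraries of its group. In the library of 10126218 reads this deviation rose with transcript length, by 0.33 log2 units per 10-fold length. In the library of 10190154 reads it fell by 0.33, over 11808 genes. The 3 low-glucose libraries had slopes between -0.03 and 0.03. Most of the 10 genes have long transcripts, so calls of these 10 that changed without one of these control libraries are given with and without it. For other pathway genes that did not pass with all libraries, only counts without these libraries are given.

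The cell line's identity was checked on marker genes. The keratins KRT8, KRT18 and KRT19 were read in every library, with at least 245 TPM (read counts corrected for transcript length and library depth), while EPCAM and CDH1 had at most 3 reads. Of the mesenchymal markers, VIM and ZEB1 were high and CDH2 had no read. The epithelial sum ran from 6889 to 8805 TPM over the controls and from 3955 to 4136 over the low-glucose libraries. The mesenchymal sum ran from 4802 to 5704 TPM and from 6529 to 6776. PTPRC, CD3E, DCN and the acinar and islet markers (PRSS1, CPA1, CELA3A, INS and GCG) had no read. The immune list summed to at most 2.36 TPM and the fibroblast list to at most 0.403 TPM. The endothelial sum was 6.77 to 8.60 TPM in the controls against 0.428 to 0.536 under low glucose, nearly all of it CDH5, with PECAM1 and VWF at no more than 4 reads. The part of these marker shifts in the results below was not tested. In bulk RNA of a single line, fewer cells with a marker and less of its RNA per cell cannot be told apart.

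The promoters of 4 of the genes are shown because they frame the contrast described below: SESN2 and DDIT4 rose, MTOR fell, and TSC2 was not past the threshold. Each is the 250 bases before and 50 bases from the start site, taken from RefSeq on build GRCh38.p14, written 5′ to 3′ on the gene's strand. Capitals mark matches, on either strand, to TGATGNAA (the element bound by C/EBP and ATF4 pairs), ACGTG (the core of the hypoxia element), CACGTG (the E-box, which holds the hypoxia core within it), GTAAACA (the forkhead element), TGACG (found in the cyclic AMP element) and CCAAT (the box bound by NF-Y).
SESN2, chr1:28259268-28259567, plus strand: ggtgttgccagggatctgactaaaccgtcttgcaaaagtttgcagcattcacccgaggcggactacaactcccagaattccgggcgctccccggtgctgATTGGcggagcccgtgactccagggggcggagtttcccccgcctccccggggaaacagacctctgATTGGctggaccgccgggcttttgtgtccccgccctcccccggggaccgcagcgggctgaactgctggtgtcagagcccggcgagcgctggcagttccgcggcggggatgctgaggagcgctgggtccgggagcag
DDIT4, chr10:72273674-72273973, plus strand: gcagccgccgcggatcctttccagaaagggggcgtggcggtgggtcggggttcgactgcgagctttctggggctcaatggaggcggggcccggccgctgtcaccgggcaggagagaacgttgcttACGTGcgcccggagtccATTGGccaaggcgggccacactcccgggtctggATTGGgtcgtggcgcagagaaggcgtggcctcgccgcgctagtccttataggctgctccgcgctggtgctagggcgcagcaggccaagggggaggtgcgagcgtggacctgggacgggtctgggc
MTOR, chr1:11262502-11262801, minus strand: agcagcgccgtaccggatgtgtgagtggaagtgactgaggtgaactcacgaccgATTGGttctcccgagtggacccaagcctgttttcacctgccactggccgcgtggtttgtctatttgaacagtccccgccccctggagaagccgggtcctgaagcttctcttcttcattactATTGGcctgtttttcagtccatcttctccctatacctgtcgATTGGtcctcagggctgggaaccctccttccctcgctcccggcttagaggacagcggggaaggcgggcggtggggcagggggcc
TSC2, chr16:2047735-2048034, plus strand: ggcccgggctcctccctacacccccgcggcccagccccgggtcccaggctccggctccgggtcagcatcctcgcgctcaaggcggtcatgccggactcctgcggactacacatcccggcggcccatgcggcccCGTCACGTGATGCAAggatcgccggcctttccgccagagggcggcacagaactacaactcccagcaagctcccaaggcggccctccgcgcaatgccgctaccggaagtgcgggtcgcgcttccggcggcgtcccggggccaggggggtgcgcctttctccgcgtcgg

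SESN2 and DDIT4, the risen pair, each held 2 CCAAT matches, at -151 and -86 in SESN2 and at -108 and -75 in DDIT4. MTOR, which fell, held 3, at -196, -75 and -34. At least 1 CCAAT was found in 34.6% of 35116 RefSeq promoter windows of the same length and at least 2 in 10.8%. DDIT4 also held ACGTG at -125, which 21.4% of windows hold, and SESN2 held none of the other 5 motifs. TSC2 held TGATGNAA at -110, found in 3.62% of windows, and CACGTG at -114, found in 7.26%. These overlap each other and a TGACG match, a motif held by 24.6% of windows. RHEB held ACGTG and 2 each of TGACG and CCAAT, and TSC1 held TGACG. Of the 3 SESN1 windows, 1 held 2 TGACG matches and a CCAAT, 1 held a CCAAT, and 1 held no match. SESN3, RPTOR and the second TSC2 window held no match to any of the 6 motifs, and GTAAACA (3.42% of windows) was found in none of the windows searched. A match is a run of letters, not a site shown to be bound. DEPTOR was not among the promoters used.

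DDIT4 had the larger rise of the pair. The gene lies on chromosome 10 (hg38, 72273919 to 72276036, plus strand), with a 3-exon transcript of 1744 bases. Its normalized counts were 996.6, 915.1 and 1106.3 in control and 3906.4, 3725.2 and 3498.3 in low glucose. The lowest low-glucose library stood far above the highest control. The means were 1006 ± 95.9 and 3710.0 ± 204 (SD, n = 3 each), a 3.69-fold higher level, with a log2 fold change of 1.88 ± 0.08 (SE) and a 95% interval of 1.70 to 2.07. Of the 21101 genes tested, 321 rose more.

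SESN2, the stress-induced sestrin and a sensor of leucine, lies on chromosome 1 (28259518 to 28282491, plus strand) with 10 exons in 3462 bases. Its normalized counts were 582.9, 610.8 and 584.2 in control and 1809.4, 1693.2 and 1705.6 in low glucose. Within each group the values were close together, and the groups were wide apart. The means were 593 ± 15.7 and 1736 ± 63.8 (SD, n = 3 each), 2.93-fold higher in low glucose, with a log2 fold change of 1.55 ± 0.08 (SE) and a 95% interval of 1.39 to 1.71. A larger rise was found for 725 genes. Against the other 2 controls, the libraries of 10126218 and 10190154 reads deviated by -0.20 and 0.21 for DDIT4 and by 0.07 and -0.03 for SESN2. For both genes these shifts were small beside the difference between the groups.

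**Figure D1:**
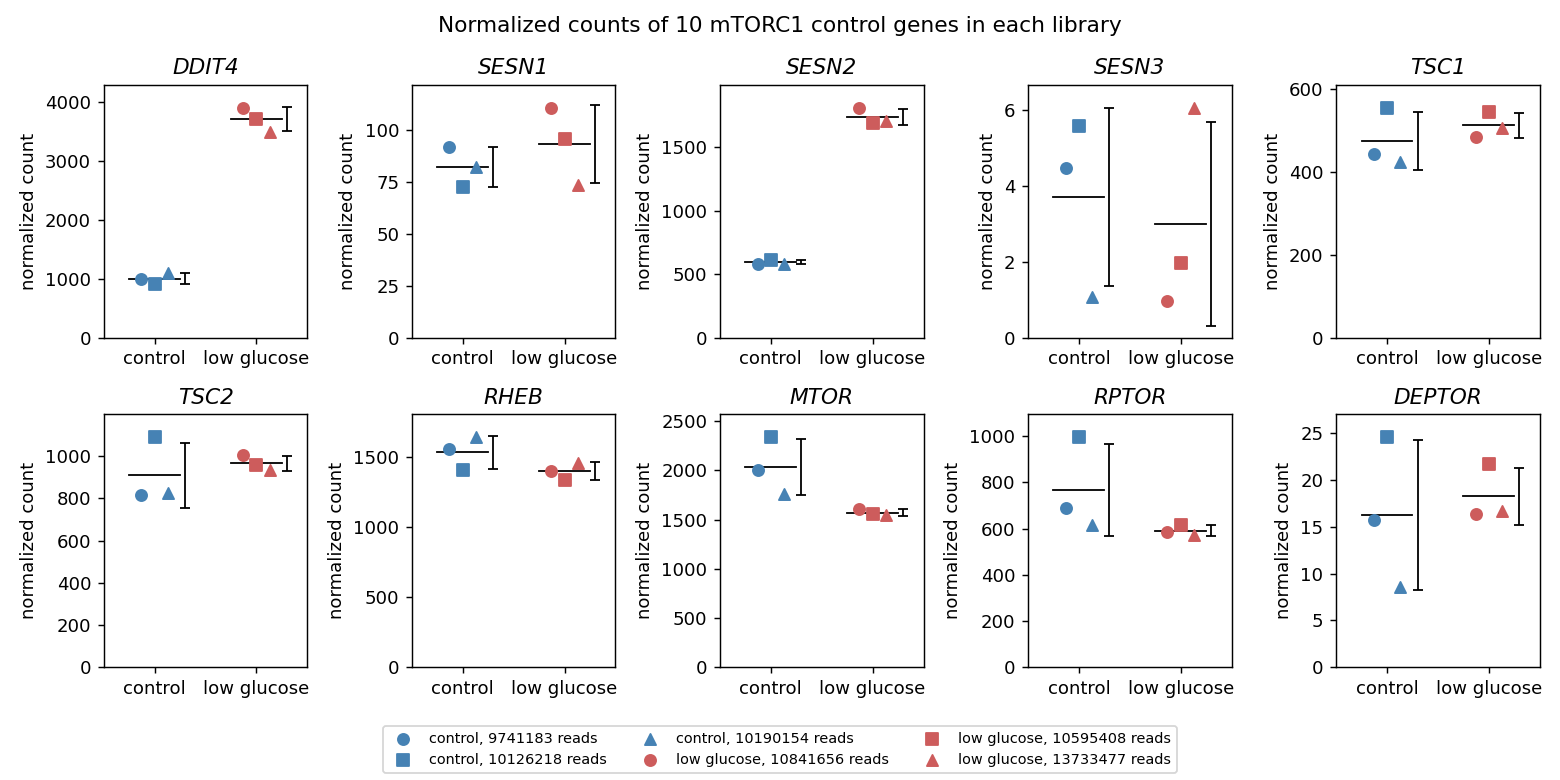
Normalized counts (y axis, from 0, a scale of its own in each panel) of the 10 genes in the 3 control and 3 low-glucose libraries; points are libraries, horizontal lines are group means and bars are ± 1 SD. DDIT4 and SESN2 stand apart between groups by the widest gaps (915.1 to 1106.3 against 3498.3 to 3906.4, and 582.9 to 610.8 against 1693.2 to 1809.4), MTOR is lower in each low-glucose library, and the control square (10126218 reads) is the highest control point for TSC1, TSC2, MTOR, RPTOR and DEPTOR.

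The other sestrins did not share the rise of SESN2. SESN1, a known p53 target, lies on chromosome 6 (108984309 to 109094846, minus strand), and its normalized counts were 91.9, 72.4 and 82.4 in control and 110.6, 95.8 and 73.5 in low glucose. The groups overlapped, and the log2 fold change of 0.17 had a 95% interval of -0.22 to 0.55 (limma, adjusted p = 0.529). SESN3, a known target of FOXO factors, lies on chromosome 11 (95165513 to 95232541, minus strand) and was almost unread, with 4, 5 and 1 reads in control and 1, 2 and 8 in low glucose. At that depth a change was not detectable, as the 95% interval of its log2 fold change ran from -1.68 to 1.11 (limma, adjusted p = 0.781).

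Per length, SESN2 made up most of the sestrin RNA. The sum of the sestrins was 33.8 ± 1.52 TPM in control and 91.9 ± 3.62 TPM in low glucose (SD, n = 3 each). The SESN2 share of that sum was 92.0% ± 0.988 in control and 96.8% ± 0.484 in low glucose. The SESN1 share was 7.81% ± 1.02 and 3.17% ± 0.54. Since SESN2 was picked for its rise, this shift of shares follows in part from the choice and was not tested.

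DDIT4L, the paralog of DDIT4 and also an inhibitor of mTORC1, moved the other way. Its normalized counts were 500.0, 436.9 and 548.9 in control and 343.4, 324.0 and 311.4 in low glucose, with no overlap. The log2 fold change was -0.60 ± 0.10 (SE, limma adjusted p = 0.000477). So the stress-induced inhibitors of the list divided into 2 that were selected on a rise, 2 sestrins that were not past the threshold and DDIT4L, which fell.

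**Figure D2:**
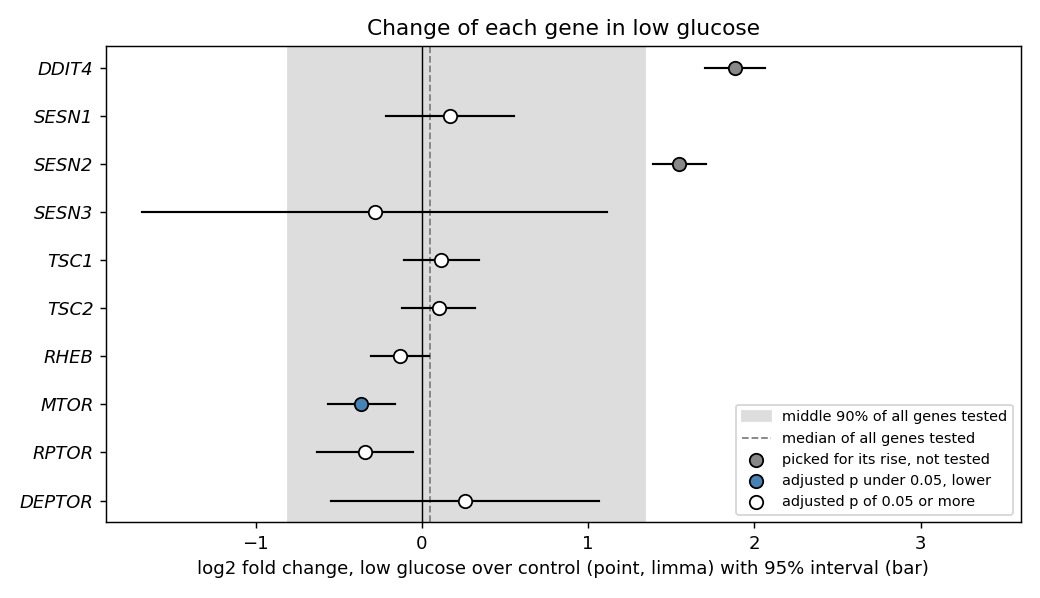
Log2 fold change in low glucose over control (x axis) of each gene, with its 95% interval as a bar; the grey band holds the middle 90% of the 21101 genes tested (-0.81 to 1.34) and the dashed line is their median (0.05). DDIT4 and SESN2 lie to the right of the band, which follows in part from their being picked for a rise and is no test. The interval of MTOR lies below 0 but inside the band, and that of SESN3 is the widest (-1.68 to 1.11).

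Among the 8 genes not picked for a rise, 0 rose and 1 fell past a limma adjusted p of 0.05, and 7 did not pass. Over all 21101 genes tested, 30.9% passed, 14.7% as higher and 16.2% as lower, and the share was 45.5% among the 11831 genes averaging 50 normalized counts or more. The 3 control and 3 low-glucose values did not overlap for 1 of the 8 genes, against 43.9% of all genes tested. The median log2 fold change of the 8 was -0.02, against 0.05 for all genes. None of the 8 was higher at an unadjusted p under 0.05 either, in limma (0 of 8), DESeq2 (0 of 8) or edgeR (0 of 7).

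MTOR, the kinase subunit, was the gene that fell. It lies on chromosome 1 (11106535 to 11262556, minus strand), and its transcript of 58 exons and 8721 bases is the second longest of the 10. Normalized counts were 2008.9, 2335.1 and 1765.4 in control and 1610.3, 1555.9 and 1549.5 in low glucose. The lowest control library stood above the highest low-glucose library, by less than the controls differed among themselves. The means were 2036 ± 286 and 1572 ± 33.4 (SD, n = 3 each), 0.772 times the control level, and the log2 fold change was -0.36 ± 0.09 (SE, limma adjusted p = 0.0083). It was -0.26 without the control library of 10126218 reads (adjusted p = 0.00276) and -0.46 without that of 10190154 reads (adjusted p = 0.000194). With quantile normalization the change was -0.16, with an adjusted p of 0.189. With all libraries, 4273 of the 21101 genes tested fell more than MTOR.

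RPTOR, the scaffold that brings substrates to mTORC1, had a fold change of like size and wider spread. It lies on chromosome 17 (80544819 to 80966371, plus strand). Normalized counts were 689.4, 994.2 and 616.3 in control and 583.9, 617.4 and 572.8 in low glucose. The groups overlapped, since the highest low-glucose value was just over the lowest control value. The log2 fold change was -0.34, with a 95% interval of -0.63 to -0.05 (limma, adjusted p = 0.0681). It was -0.49 without the control library of 10190154 reads (adjusted p = 0.00348) and -0.14 without that of 10126218 reads (adjusted p = 0.199), so single control libraries decide its call.

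DEPTOR, an inhibitory subunit, lies on chromosome 8 (119873717 to 120050918, plus strand) and was little read. Its normalized counts were 15.7, 24.5 and 8.6 in control and 16.4, 21.7 and 16.7 in low glucose. The controls spanned the low-glucose values, and the 95% interval of the log2 fold change was -0.55 to 1.07 (limma, adjusted p = 0.652). Without the control library of 10190154 reads the log2 fold change was -0.11 in place of 0.26.

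The remaining mTORC1 subunits were read from a list of the pathway. AKT1S1 (PRAS40, an inhibitory subunit) had 1369.5 to 1425.6 normalized counts in the controls against 1253.6 to 1324.6 under low glucose, with a log2 fold change of -0.12 (limma, adjusted p = 0.25). MLST8, a subunit that stabilises the kinase, had 366 to 464 in the controls against 481 to 502 under low glucose, with a log2 fold change of 0.27 (limma, adjusted p = 0.0538). Neither passed the threshold with all libraries. The highest MLST8 control value, 464, was that of the library of 10126218 reads, and its call without that library is not given. MLST8 is named outside the rule for named genes, after its values were seen.

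Ratios between partners were taken per length. MLST8 over MTOR was 1.01 to 1.08 in the controls and 1.56 to 1.69 in low glucose, with means of 1.04 ± 0.035 and 1.62 ± 0.067 (SD, n = 3 each). The values did not overlap, but this pair was singled out after its values were seen, so the ratio is a description with no test. The other ratios were compared with exact two-sided permutation tests, which cannot go below 0.1 with 3 against 3 libraries, and none passed. MTOR over RPTOR was 2.12 ± 0.245 in control and 2.09 ± 0.098 in low glucose (exact permutation p = 0.9). TSC2 over TSC1 was 2.57 ± 0.089 and 2.54 ± 0.217 (exact permutation p = 1), and RHEB over MTOR was 3.27 ± 0.697 and 3.79 ± 0.191 (exact permutation p = 0.3). After Benjamini-Hochberg adjustment over the 4 ratios computed these are 1, 1 and 0.6.

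The TSC complex genes did not pass the threshold with all libraries. TSC1 (hamartin) lies on chromosome 9 (132891348 to 132946874, minus strand), with 443.9, 554.0 and 424.8 normalized counts in control and 484.8, 545.3 and 504.6 in low glucose. TSC2 (tuberin, the GTPase-activating subunit) lies on chromosome 16 (2047967 to 2089491, plus strand), with 817.2, 1089.0 and 824.9 in control and 1006.2, 960.2 and 935.0 in low glucose. For both genes the control library of 10126218 reads was the highest of all 6. The log2 fold changes were 0.12 for TSC1 (95% interval -0.11 to 0.34, limma adjusted p = 0.444) and 0.10 for TSC2 (-0.12 to 0.32, adjusted p = 0.512). Without that control library they were 0.23 and 0.24 and passed (limma, adjusted p = 0.0374 and 0.0116). TBC1D7, the other subunit of the complex, had a log2 fold change of 0.07 (limma, adjusted p = 0.714).

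RHEB, the GTPase that activates mTORC1, lies on chromosome 7 (151466012 to 151520120, minus strand). Its normalized counts were 1554.9, 1402.2 and 1637.0 in control and 1401.5, 1331.6 and 1456.3 in low glucose. The values overlapped, and the log2 fold change of -0.13 had a 95% interval of -0.30 to 0.04 (limma, adjusted p = 0.244). It was -0.19 without the control library of 10126218 reads and then passed (limma, adjusted p = 0.025), and with quantile normalization it was 0.06. RHEBL1, its paralog, rose, at 17.8 to 40.7 normalized counts in the controls against 46.2 to 81.8 under low glucose, with a log2 fold change of 1.12 (limma, adjusted p = 0.0112). That call was lost without low glucose replicate 1 (adjusted p = 0.0947) and with no variance trend (adjusted p = 0.0869).

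**Figure D3:**
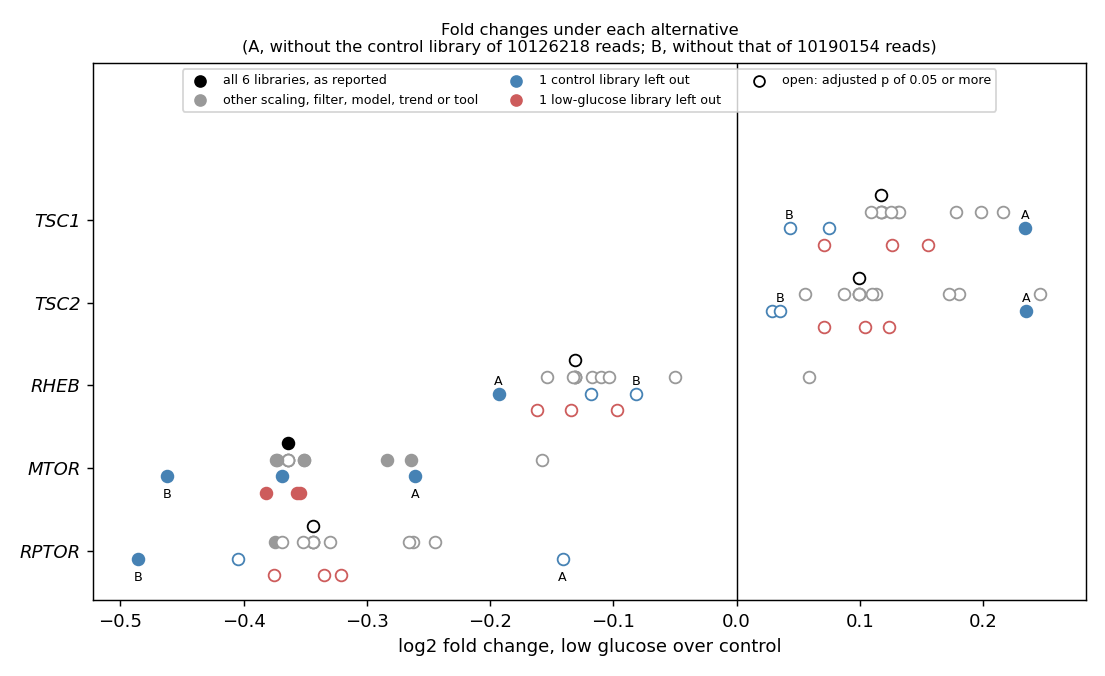
Log2 fold change (x axis) of TSC1, TSC2, RHEB, MTOR and RPTOR with all 6 libraries (black), under other scalings, filters, models, trends or tools (grey), and with 1 control (blue) or 1 low-glucose (red) library left out; filled points have an adjusted p under 0.05. The points lettered A and B, which leave out the control libraries of 10126218 and 10190154 reads, lie far apart for each gene, as for RPTOR (-0.49 for B and -0.14 for A) and TSC1 (0.04 for B and 0.23 for A).

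The control libraries differed from each other in these genes. Against the other 2 controls, the library of 10126218 reads was higher by 0.61 log2 units for RPTOR, 0.41 for TSC2, 0.35 for TSC1, 0.31 for MTOR and 1.01 for DEPTOR, and it was lower for RHEB (-0.19). The library of 10190154 reads deviated the opposite way, by -0.43 for RPTOR, -0.29 for MTOR, -0.22 for TSC1, -0.19 for TSC2, -1.11 for DEPTOR and 0.15 for RHEB. With 3 libraries, 1 high value by itself makes the others low, and for TSC2 the library of 9741183 reads deviated at least as far (-0.21). With the trend on transcript length removed from each library, an alternative chosen after seeing the data, the log2 fold changes were -0.26 for MTOR (limma, adjusted p = 0.0045), -0.27 for RPTOR (0.0572), 0.22 for TSC1 (0.0589) and 0.17 for TSC2 (0.122).

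Levels can be ranked only per length. In control, RHEB was the most abundant of the 10 at 136 ± 7.39 TPM, followed by DDIT4 at 105 ± 6.99 TPM, MTOR at 42.5 ± 7.09 TPM and SESN2 at 31.1 ± 1.57 TPM. In low glucose the order was DDIT4 at 377 ± 18.2 TPM, RHEB at 121 ± 6.71 TPM, SESN2 at 88.9 ± 3.30 TPM and MTOR at 32.0 ± 0.666 TPM (SD, n = 3 each). The 6 genes below kept their ranks: TSC2 (25.8 and 26.7 TPM), RPTOR (20.4 and 15.3), TSC1 (10.04 and 10.5), SESN1 (2.64 and 2.92), DEPTOR (1.16 and 1.26) and SESN3 (0.071 and 0.056). Neighbours in the order overlapped in control for SESN2 with TSC2 and for TSC2 with RPTOR, and no neighbours overlapped in low glucose.

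**Figure D4:**
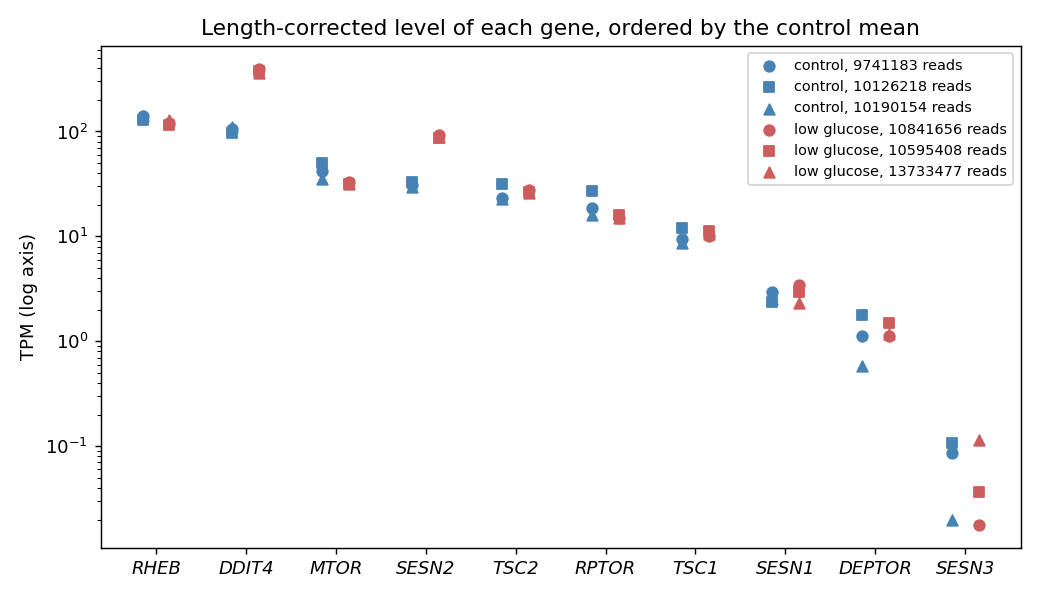
TPM of each gene (y axis, log scale) in the 3 control (blue) and 3 low-glucose (red) libraries, ordered by the control mean. DDIT4 passes RHEB in low glucose (377 against 121 TPM) and SESN2 passes MTOR (88.9 against 32.0 TPM), while SESN3 stays near 0.1 TPM or below.

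Beyond the 10, other genes of the pathway were listed with earlier results of these data known. These 52 genes held 12 that rose and 10 that fell at a limma adjusted p under 0.05, and 30 that did not pass. Their median log2 fold change was 0.07, near the 0.05 of all genes tested. The count was 13 higher and 11 lower without the control library of 10126218 reads, and 15 higher and 11 lower without that of 10190154 reads. The share that passed can be read against the 30.9% of all genes, or the 45.5% of those averaging 50 normalized counts or more.

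On the amino acid branch, through which sestrins act, the sensors moved in both directions. SLC38A9, the lysosomal arginine sensor, rose, at 88.8 to 118.8 normalized counts in the controls against 147.2 to 172.0 under low glucose, a log2 fold change of 0.59 (limma, adjusted p = 0.00668). CASTOR1, a cytosolic arginine sensor, rose by 1.26 on the log2 scale (limma, adjusted p = 0.0386), at 3.3 to 12.3 normalized counts in the controls against 16.4 to 22.7 under low glucose. Its call was lost under 9 of 17 alternatives, among them without the control library of 10126218 reads (log2 fold change 0.80, adjusted p = 0.12). CASTOR2 fell, at 77.0 to 129.3 normalized counts in the controls against 53.04 to 67.2 under low glucose, a log2 fold change of -0.81 (limma, adjusted p = 0.00656). With no variance trend the adjusted p was 0.0575.

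Counts per role, here and in the paragraphs that follow, can be read against all genes tested, of which 14.7% rose and 16.2% fell. GATOR2, the complex that sestrins bind, had 1 gene higher and 1 lower of its 5. WDR59 rose by 0.35 (limma, adjusted p = 0.00555), and SEH1L, which is also a nuclear pore subunit, had a log2 fold change of -0.37 (adjusted p = 0.00158). The WDR59 call was lost with no variance trend (adjusted p = 0.0622) and the SEH1L call with quantile normalization (adjusted p = 0.0713). None of the 3 GATOR1 genes passed, nor had any an unadjusted p under 0.05 in limma, DESeq2 or edgeR (0 of 3 in each), with the most abundant, NPRL3, at -0.09 (limma, adjusted p = 0.428). In KICSTOR, which holds GATOR1 at the lysosome, ITFG2 fell (log2 fold change -0.43, limma adjusted p = 0.000928), and the other 3 genes did not pass. Of 12 genes of the Rag GTPases, Ragulator and folliculin, 4 rose and 0 fell (1 was lower at an unadjusted p under 0.05 in limma and in edgeR, and 0 in DESeq2). The called share was 30.9% over all genes tested and 45.5% over genes averaging 50 normalized counts or more, so this count is not read as a result. RRAGD rose by 0.75 (limma, adjusted p = 5.76e-05), at 279.2 to 341.1 normalized counts in the controls against 521.3 to 548.3 under low glucose. RRAGC rose by 0.51 (adjusted p = 0.00712) and FLCN by 0.32 (adjusted p = 0.0213). The RRAGC call was lost with no variance trend (adjusted p = 0.0554). The FLCN call was lost with no variance trend and without any of 3 single libraries (adjusted p = 0.0893 without the control library of 9741183 reads, 0.11 without low glucose replicate 2 and 0.0895 without the low-glucose library of 13733477 reads).

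On the growth factor branch, AKT1 and AKT2, kinases that inhibit the TSC complex, fell. The log2 fold changes were -0.33 and -0.45 (limma, adjusted p = 0.00272 and 0.000676). AKT2 had 1869.9 to 2138.9 normalized counts in the controls against 1380.5 to 1546.0 under low glucose, without overlap. PDPK1, the kinase that activates them, had a log2 fold change of -0.21 and did not pass (limma, adjusted p = 0.117). The AKT1 call was lost with quantile normalization. In mTORC2, the complex that phosphorylates AKT, MAPKAP1 (SIN1) fell, with a log2 fold change of -0.30 (limma, adjusted p = 0.00855), and the other 3 genes did not pass. The MAPKAP1 call was lost with quantile normalization (-0.12, adjusted p = 0.27), with no variance trend (adjusted p = 0.0724) and without low glucose replicate 1 (adjusted p = 0.0508).

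Of 10 mTORC1 substrates, 4 rose and 2 fell, where 14.7% of all genes tested rose and 16.2% fell. Among genes averaging 50 normalized counts or more, 45.5% passed. The translational repressors of the EIF4EBP family moved apart. EIF4EBP2 fell, at 1510.7 to 2017.4 normalized counts in the controls against 1036.2 to 1048.5 under low glucose, a log2 fold change of -0.75 (limma, adjusted p = 3.94e-05). EIF4EBP3 rose by 1.41 (adjusted p = 0.0244), at 3.2 to 7.8 normalized counts in the controls against 9.9 to 20.7 under low glucose, and its call was lost under 5 of 16 alternatives, among them without the control library of 10190154 reads (log2 fold change 1.12, adjusted p = 0.0627). EIF4EBP1, named after its values were seen, rose by 0.72 (limma, adjusted p = 0.000227). GRB10, an adaptor that dampens insulin receptor signalling, rose by 0.84 (limma, adjusted p = 1.73e-05), at 464.1 to 587.4 normalized counts in the controls against 886.1 to 928.2 under low glucose.

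Sorted by the direction in which their proteins act on mTORC1, and leaving out the 10 genes, 14 brakes held 1 that rose, 3 that fell and 10 that did not pass. The 21 components and activators held 5 that rose, 4 that fell and 12 that did not pass. Of all genes tested 14.7% rose and 16.2% fell, 30.9% together, so neither set is read as a result. The medians of the log2 fold changes were 0.04 and 0.17.

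**Figure D5:**
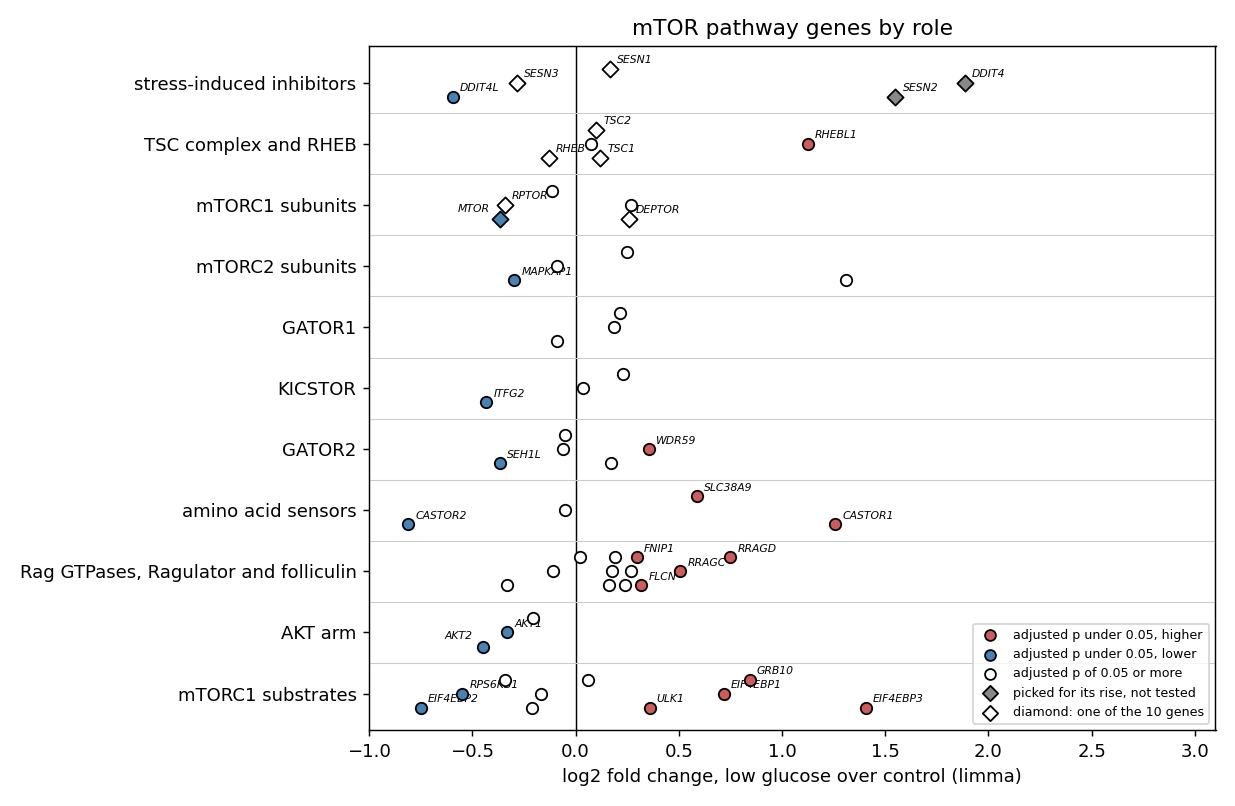
Log2 fold change in low glucose over control (x axis) of the genes of the mTOR pathway, arranged by role (rows); diamonds are the 10 genes, circles other genes of the list that are reported here, red and blue fills mark a limma adjusted p under 0.05 (higher or lower) and grey fills the pair picked for its rise. Calls fall on both sides of 0 for the sensors, GATOR2 and the substrates, and AKT1 and AKT2 are lower (-0.33 and -0.45). The called Rag and folliculin genes that are drawn are higher. Of the 12 genes of that role 4 were called, against 30.9% of all genes tested.

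Transcription factors known to act on sestrins or DDIT4 were read as context, from lists chosen with earlier results of these data known. Of 8, 5 rose, 1 fell and 2 did not pass, where 14.7% of all genes tested rose and 16.2% fell, 30.9% together. The called share was 45.5% among genes averaging 50 normalized counts or more. DDIT3 (CHOP) rose, at 108.1 to 216.1 normalized counts in the controls against 1110.3 to 1330.4 under low glucose, a log2 fold change of 2.84 (limma, adjusted p = 1.45e-07). CEBPB rose by 1.45 (adjusted p = 4.24e-08), and ATF4, the effector of the integrated stress response, by 1.04 (adjusted p = 7.66e-06), at 1931.6 to 2743.3 normalized counts in the controls against 4784.2 to 5051.1 under low glucose. HIF1A had a log2 fold change of -0.37 (limma, adjusted p = 0.00188), named after its values were seen as the factor that fell, and its call was lost with quantile normalization (adjusted p = 0.113). Of 12 p53 target genes other than sestrins, 4 rose, 1 fell and 7 did not pass. Their called share lay between the same 30.9% and 45.5%. BBC3 (PUMA) rose by 1.48, TP53I3 by 0.99 and CDKN1A (p21) by 0.94 (limma, adjusted p = 1.96e-05, 3.19e-06 and 0.00239). ZMAT3, named after its values were seen as the target that fell, had a log2 fold change of -0.45 (limma, adjusted p = 0.0131). The ZMAT3 call was lost with no variance trend (adjusted p = 0.0618) and without low glucose replicate 1 (adjusted p = 0.084). These counts say nothing of which factor acts on SESN2 or DDIT4.

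The genes whose pattern over the 6 libraries was nearest to each of the risen pair were different ones. Likeness is the root mean square difference of log2 values centred on each gene's mean, among 11830 genes averaging 50 normalized counts or more. For SESN2 the nearest was TRIB3, a stress-induced pseudokinase, at 0.034 log2 units, with a mean of 714 normalized counts in control and 2042 in low glucose. ARHGEF2 (0.066), BIRC3 (0.069), HSPA5, the main chaperone of the endoplasmic reticulum (0.072), and VEGFA (0.075) followed. For DDIT4 the nearest was ENSG00000269926 (0.051), followed by ABCC3 (0.055), PAX8-AS1 (0.056), AKR1C1 (0.082) and MANF (0.083). SESN2 ranked 41st for DDIT4, at 0.20 log2 units, and DDIT4 ranked 93rd for SESN2. This likeness rests on the contrast that chose the pair, and is a description.

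ENSG00000269926 has no entry in the annotation or name tables used here, so its place is not given. It stood at 65.5% to 72.5% of the DDIT4 normalized count in all 6 libraries. Whether it shares reads with DDIT4 was not tested.

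Exons of 7 of the 10 genes overlap a gene on the other strand. The library kit keeps strand, but the strand setting of the counting is not given in the sources used here, so these values are less certain. TSC2 shares 784 bases with PKD1, whose mean was 225% of that of TSC2 and whose log2 fold change was 0.23 (limma, adjusted p = 0.0983). MTOR shares 220 bases with MTOR-AS1, at 3.64% of the MTOR mean, and 151 bases with ANGPTL7, at 0.0198%. SESN1 shares 363 bases with ENSG00000271730, at 13.4% of its mean, and DEPTOR 252 bases with DEPTOR-AS1, at 14.4%. TSC1 shares 349 bases with GFI1B (1.68%), and RPTOR shares 57 to 133 bases with ENSG00000262313, ENSG00000262662 and ENSG00000261924 (3.91% to 6.65%). LNCRNA-IUR, which overlaps SESN3, had no read. SESN2, DDIT4 and RHEB had no such overlap in Gencode v44. That annotation has no entry for ENSG00000269926, so an overlap of that gene with DDIT4 could not be searched for. Among the called genes of the lists with values given above, some had a partner on the other strand with a higher mean. These were CASTOR2 (RCC1L, at 1625% of the CASTOR2 mean), DDIT3 (MARS1, 411%) and ITFG2 (FOXM1, 255%). The same held for NFE2L2 (HNRNPA3) and TP53INP1 (NDUFAF6), called genes that enter only the counts above.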

How the data were processed

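The RNA-seq libraries (3 of low glucose, 3 of control, 48 h, MiaPaCa-2) came as 1 deposited table. Per the labels and methods, the authors mapped strand-specific paired reads to hg38 with STAR 2.7.0e and compared conditions with DESeq2. RSEM is in the study's software list without its role, and the strand setting of the counting and the annotation are not given in the sources used here. The signal that the authors deposited is each gene's read count over the library's size factor. All values were whole multiples of 1 read (tolerance 0.05), so reads were recovered, and median-of-ratios factors over 17906 genes matched the scaling. Of the identifiers, 99.5% matched Gencode v44, and the 45 pseudoautosomal copies on chromosome Y held 1 read.

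The 10 genes, the lists and the motifs were chosen with earlier results of these data known. Log2(value + 1) was fitted for the 21101 genes averaging 1 or more with limma 3.58.1 (lmFit, eBayes with trend) in R 4.3.3, two-sided, with Benjamini-Hochberg adjustment over all of them and a threshold of 0.05; fold changes are on that scale and understate low genes. The design foresaw raw counts or normalized values, and the second branch was used. TPM was computed from recovered reads over the Ensembl canonical transcript. The fit was tested on simulated data. With 3 libraries per group an exact permutation test cannot go below 0.1, and intervals of read counts are limited by depth. Tables and figures used Python 3.11.15, numpy 2.4.6, pandas 2.3.3 and matplotlib 3.10.9.

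Genes named were the 10, per role of the pathway and context lists up to 3 called genes of the largest change (and, where fewer than 2 were called, the most abundant), the 5 nearest in pattern to SESN2 and to DDIT4, genes overlapping on the other strand, and marker genes at 0 or against their list. Some of these genes are not reported here, though the counts over lists include them. Alternatives were scaling by library size, TMM or quantiles, no filter, a mean of at least 5, a pseudocount of 0.1, no variance trend, DESeq2 1.42.0, edgeR 4.0.16, a log2 fold change of at least 1, each library left out, and, chosen after seeing the data, trends on length or GC content removed (loess, span 0.3). The fold changes that the text gives are those of these fits, and no column of the authors' own comparisons was used.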

Additional observations from a re-analysis of the deposited data

How the results depend on the processing

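No paired analysis was possible because replicate numbers are missing from 4 of the 6 columns. The count of genes past the threshold, 6528, was 4090 with no variance trend, 1392 when a 2-fold change either way (1 log2 unit) was also required, and 4319 to 7251 with 1 library left out (4319 without low glucose replicate 1). Of the 8 genes tested among the 10, 1 passed, against 0 with quantile normalization, with no variance trend and with the fold criterion, 2 with DESeq2 (MTOR and RPTOR), and 1 to 4 with 1 library left out (4 without the control library of 10126218 reads, where TSC1 and TSC2 were higher and RHEB and MTOR lower, and 2 without that of 10190154 reads). Of the other 52 pathway genes, 22 passed, against 12 with no variance trend and 3 with the fold criterion, with 16 to 26 when 1 library was left out.

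The log2 fold change of DDIT4 was 2.06 with quantile normalization, and that of SESN2 was 1.63 with library size scaling and 1.70 with quantile normalization; without 1 library they ran from 1.82 to 1.96 and from 1.52 to 1.57. For MTOR it was -0.16 with quantile normalization (limma adjusted p = 0.189) and -0.36 with no variance trend (adjusted p = 0.102), and -0.46 to -0.26 with 1 library left out, past the threshold each time. For RPTOR it was -0.37 with DESeq2 (adjusted p = 0.038) and -0.49 to -0.14 with 1 library left out. With 1 library left out the ranges were 0.0431 to 0.234 for TSC1, 0.0284 to 0.235 for TSC2, -0.193 to -0.0813 for RHEB, -0.80 to 0.12 for SESN3 and -0.11 to 0.60 for DEPTOR. SESN3 changed sign without the control library of 10126218 reads (0.0361) and without low glucose replicate 1 (0.12), DEPTOR without that of 10190154 reads (-0.11) and with quantile normalization (-0.0335), and RHEB with quantile normalization (0.0589); none of these was past the threshold. SESN3 had no value with a mean of at least 5 or in edgeR, whose filters remove it. SESN1 kept its direction and its side of the threshold. Quantile normalization moved the median of all genes from 0.05 to -0.03, and library size scaling to 0.12. Of 33 called genes in the pathway and context lists, 16 kept the call under every alternative fit, and none changed sign. The fold criterion is not counted among these fits, and only 3 of the 52 pathway genes met it. Apart from what leaving out a library shows, the cause of these shifts was not tested. Read depth limits what can be said of SESN3 and DEPTOR.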
